A study of Drosophila melanogaster with 90 samples.

Results

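The 6 genes of cuticular hydrocarbon synthesis described here are the desaturase genes desat1, desat2 and Fad2, the elongase genes eloF and bond, and the cytochrome P450 gene Cyp4g1. They were picked by symbol and for their known roles, not by a cut on measured values, though earlier results of these data were known. They make up 6 of the 14514 gene rows used. All 6 passed the filter on low counts and were among the 12045 genes tested. In the reference annotation, desat1 (FBgn0086687), desat2 (FBgn0043043), eloF (FBgn0037762) and bond (FBgn0260942) lie on chromosome arm 3R, Fad2 (FBgn0029172) lies on 3L and Cyp4g1 (FBgn0010019) on the X chromosome. Coordinates are not given, because that annotation and the counted reads belong to different genome builds.

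Cuticular hydrocarbons are long, waxy molecules that coat the fly and limit water loss, and several of them act as contact pheromones. They are made in the oenocytes, secretory cells under the abdominal cuticle. A fatty acid is desaturated, lengthened by rounds of elongation, reduced to an aldehyde and turned into a hydrocarbon with the loss of a carbon atom. The desaturase of desat1 places the first double bond, and that of Fad2 (also called desatF), which is expressed in females, adds a second to give the dienes that mark female flies. The desaturase of desat2 acts on a shorter fatty acid and gives a diene isomer that is abundant in females of African and Caribbean populations. In most populations elsewhere the gene is nearly silent. The elongase of eloF lengthens female dienes. That of bond is a very-long-chain elongase known from male meiosis and male pheromones. Cyp4g1 is the oxidative decarbonylase of the last step.

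RNA was sequenced from whole Drosophila melanogaster females of 5 inbred lines (Zimbabwe, Beijing, Ithaca, Netherlands and Tasmania), each derived from a wild population of that place. Flies were kept in groups of 1 sex until 3 to 5 days old. Each female was then mated to a single virgin male of 1 of the 5 lines and frozen 5 to 6 h after mating began, or was frozen as a virgin of the same age. A cross is named with the female line first. The submitters describe the Zimbabwe line, although caught in Africa, as a recent arrival there, and each population is represented by 1 inbred line. Each library pooled 5 to 10 females, with 3 libraries planned from separate bottles for each of the 25 crosses and 5 virgin groups. The table holds 89 of the 90 labelled libraries, 74 from mated and 15 from virgin females, and Ithaca x Zimbabwe has 2 libraries. Sequencing depth per library, as counts assigned to genes, ran from 4407704 to 38799730. Levels are given in CPM, the count of a gene divided by the scaled library size of its library, and differences are log2 changes with their standard error (SE). A gene is called where edgeR's quasi-likelihood test gave a Benjamini-Hochberg adjusted p under 0.05 over all genes tested. In RNA from whole flies, fewer cells of a type and less RNA per cell cannot be told apart.

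Some libraries stood apart from their labels. In 6 mated libraries the summed level of testis and sperm genes was above 10 CPM, up to 1579 CPM in Ithaca x Zimbabwe replicate 1 and 1480 CPM in Netherlands x Beijing replicate 2. In the 83 other libraries it was at most 3.71 CPM. In 6 libraries, genes near 0 in their own line stood above 10% of their level in another line, against at most 3.96% elsewhere. The library labelled Netherlands x Ithaca replicate 2 had 5 such genes at 92.7% of the Ithaca level, and Tasmania virgin replicate 3 had 3 genes at 30.3% of the Netherlands level. Calls of the 6 genes that changed without 9 of these libraries, and orders of cross means by male line, are given with and without them. The tenth, Ithaca x Zimbabwe replicate 3, was kept because its cross would otherwise have no library left.

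The 6 genes differed widely in level. Per kilobase of exon, over all libraries, Cyp4g1 averaged 2115 CPM and ranked 47 of 14320 genes with a known length. By the same measure desat1 had 712 CPM, Fad2 517 CPM and eloF 110 CPM per kilobase, at ranks 145, 176 and 747. The level of bond was 27.2 CPM per kilobase and that of desat2 0.414 CPM per kilobase. The 6 genes took 0.351% to 1.17% of all counts in mated libraries. desat2 had only 1 to 26 counts in any library, and its exons overlap CG46427 and CG17207 on the opposite strand. Exons of bond overlap an antisense RNA gene, asRNA:CR44062. The library kit does not mark strand, so reads of such partners cannot be told apart.

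**Figure D1:**
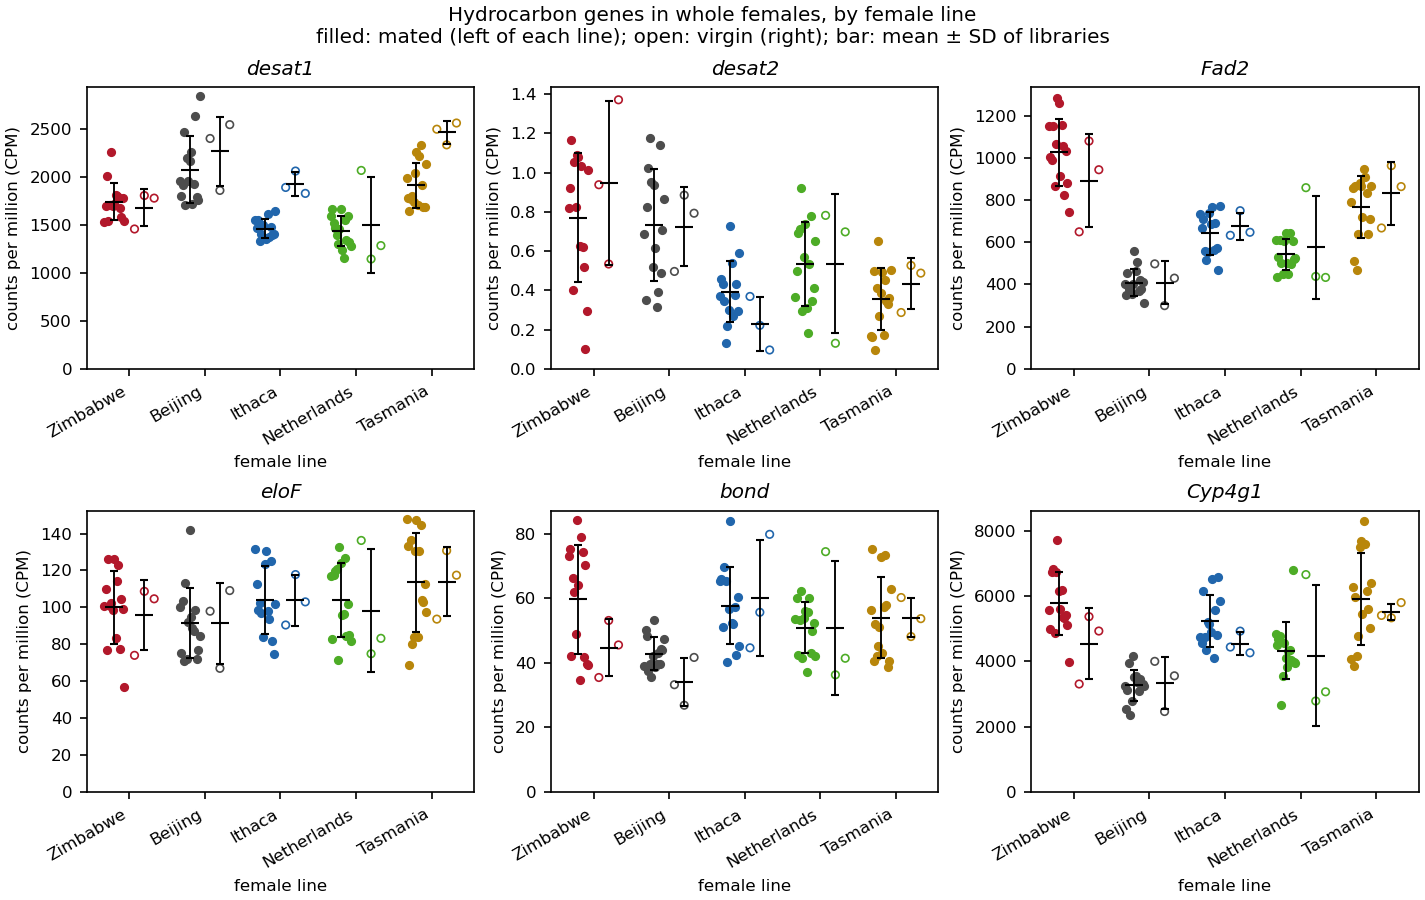
Level of each gene in CPM (linear axis from 0) by female line, with mated females as filled points left of virgin females as open points. Each point is 1 library and bars give the mean ± SD; Fad2 is highest in Zimbabwe females, and desat2 stays near or below 1 CPM in all lines.

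The main comparison asks where Zimbabwe females differed from females of the other 4 lines. After mating, 3 of the 6 genes were called and all 3 were higher in Zimbabwe females: Fad2 (1.79-fold), desat2 (1.56-fold) and Cyp4g1 (1.26-fold). Among all genes tested, 33.2% were called in this comparison, 16.9% as higher and 16.3% as lower. The median log2 change of the 6 genes was 0.28, beside -0.03 over all genes. In virgins the call was Fad2 alone (1.48-fold), where 6.45% of all genes were called and 3.01% were called as higher, and the median of the 6 genes was -0.01 beside 0.00 over all genes.

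Fad2, the gene of the second double bond, ranged in mated Zimbabwe females from 746 to 1287 CPM around a median of 1035 CPM (mean 1027 ± 159, SD, n = 15). In mated females of the 4 other lines it ranged from 314 to 946 CPM around a median of 561 CPM (mean 590 ± 166, n = 59). All 15 Zimbabwe libraries lay above the median of the others, 10 of them lay above the highest of the others, and 11 of the 59 other libraries reached the lowest Zimbabwe value. The log2 change was 0.84 ± 0.07 (adjusted p = 7.87e-16), and the adjusted p stayed at or below 3.01e-09 in all 11 alternatives tried.

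In virgins, Fad2 had 650, 1081 and 945 CPM in the 3 Zimbabwe libraries. The virgins of the other lines had 299 to 964 CPM, with a median of 641 CPM (n = 12). These groups overlapped: 5 of the 12 other libraries reached the lowest Zimbabwe value. The log2 change was 0.56 ± 0.16 (edgeR's quasi-likelihood test, adjusted p = 0.0179). The call was lost without Zimbabwe virgin replicate 2 (log2 change 0.40, adjusted p = 0.292) or 3 (0.52, adjusted p = 0.141), without replicate number 2 (0.38, adjusted p = 0.271) or 3 (0.48, adjusted p = 0.384) of every group, and in virgin libraries alone (0.55, adjusted p = 0.151).

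desat1, the gene of the first double bond, did not pass the test in either state. In mated females it ranged from 1533 to 2259 CPM (median 1709) in the Zimbabwe line and from 1155 to 2847 CPM (median 1667) in the other lines. The Zimbabwe values lay inside the range of the others. The log2 change was 0.04 ± 0.06 (edgeR's quasi-likelihood test, adjusted p = 0.741), with an interval of 2 SE from -0.08 to 0.15. In virgins, Zimbabwe females had 1459, 1809 and 1781 CPM, against 1146 to 2566 CPM (median 2068) in the others, and the log2 change was -0.25 ± 0.13 (adjusted p = 0.337).

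desat2 was low in every line. Mated Zimbabwe females had 1 to 24 counts per library (0.0995 to 1.17 CPM, median 0.826), and mated females of the other lines had 1 to 26 counts (0.0933 to 1.18 CPM, median 0.454). No mated Zimbabwe library exceeded the highest of the others, and 12 of 15 lay above their median. The log2 change was 0.64 ± 0.20 (edgeR's quasi-likelihood test, adjusted p = 0.0082), and the SE is approximate at such counts. Leaving out replicate number 1, 2 or 3 of every group ended the call each time, at log2 changes of 0.59, 0.68 and 0.65 (adjusted p = 0.065, 0.0522 and 0.0708). In virgins the 3 Zimbabwe libraries had 15, 6 and 14 counts, against 1 to 25 counts in the others, and the log2 change of 1.07 ± 0.43 was not called (adjusted p = 0.145). The part that reads of the neighbouring, far more abundant desat1 might play in so low a count was not tested.

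The elongase gene eloF ranged from 57.1 to 126 CPM (median 101) in mated Zimbabwe females and from 68.8 to 148 CPM (median 98.7) in the others. The ranges overlapped, and no Zimbabwe library exceeded the highest of the others. The log2 change of -0.03 ± 0.09 was not called (edgeR's quasi-likelihood test, adjusted p = 0.897; interval of 2 SE from -0.21 to 0.14). bond had 34.6 to 84.3 CPM (median 64.3) in mated Zimbabwe females and 35.7 to 84.0 CPM (median 51.0) in the others. In 1 Zimbabwe library it exceeded the highest of the others. Its log2 change of 0.23 ± 0.09 missed the threshold (edgeR's quasi-likelihood test, adjusted p = 0.0583). It passed in 4 of 11 alternatives: without the 9 libraries with male or other-line RNA (adjusted p = 0.0491), in mated libraries alone (0.0463), without replicate number 3 (0.00408) and with a covariate for how counts rise with gene length in each library (0.024). Without replicate number 1 its adjusted p was 0.94. In virgins neither elongase gene was called.

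Cyp4g1 ranged from 3992 to 7734 CPM (median 5566) in mated Zimbabwe females and from 2369 to 8310 CPM (median 4491) in mated females of the other lines. No Zimbabwe library exceeded the highest of the others, and 14 of 15 lay above their median. The log2 change was 0.33 ± 0.08 (edgeR's quasi-likelihood test, adjusted p = 3.59e-04), and it stayed called in all 11 alternatives (adjusted p from 5.24e-05 to 0.0218). In virgins, Zimbabwe females had 3309, 5374 and 4932 CPM, against 2465 to 6661 CPM in the others, and the log2 change was 0.07 ± 0.18 (adjusted p = 0.995). Whether the difference between Zimbabwe and other females changed with mating was tested directly. None of the 6 genes was called in that test, where 0.0% of all genes were called. At an unadjusted p under 0.05 edgeR gave 1 of the 6, desat1, and DESeq2 called 0 of the 6.

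**Figure D2:**
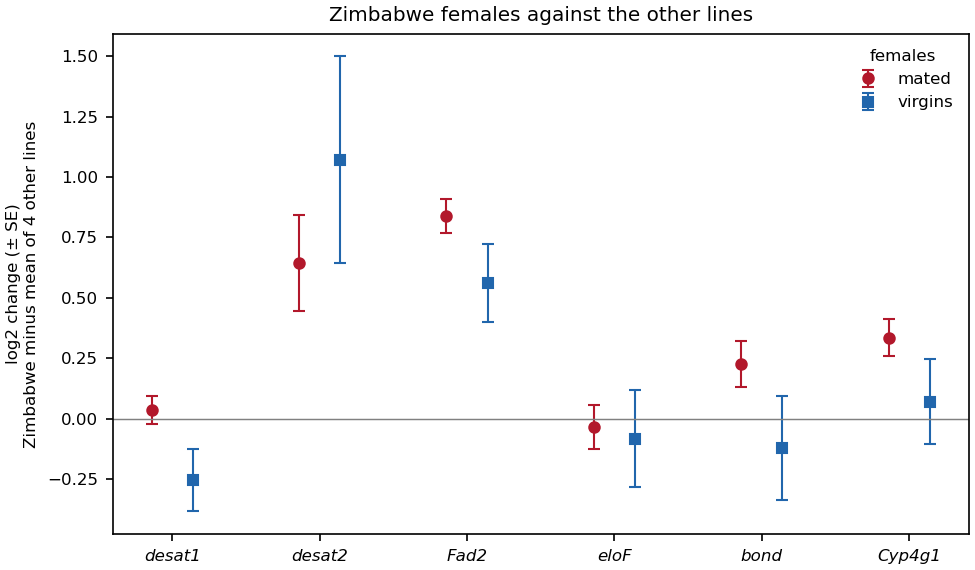
Log2 change of each gene between Zimbabwe females and the mean of the 4 other lines, from edgeR, with SE as bars; circles are mated females and squares are virgins. In mated females Fad2 stands at 0.84, Cyp4g1 at 0.33 and desat2 at 0.64 with a wider error, while eloF and desat1 lie near 0.

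Zimbabwe females were not the highest line for every gene. A test over the 5 female lines called 5 of 6 genes in mated females, where 70.1% of all genes were called, and eloF missed the threshold (adjusted p = 0.129, but 0.0238 without replicate number 3). The call of bond (adjusted p = 0.00479) was lost without replicate number 1 (0.332). In virgins it called desat1 (adjusted p = 0.00121) and Fad2 (adjusted p = 1.37e-04), where 27.5% of all genes were called. Cyp4g1 was not called in virgins (adjusted p = 0.115), but it was without Netherlands virgin replicate 1 (adjusted p = 0.00309). In virgins desat1 was lost without replicate number 2 (adjusted p = 0.0549) or 3 (0.0866) and Fad2 without number 2 (0.118), all by edgeR's quasi-likelihood test. Of 60 tests of a gene between a pair of lines in mated females, 32 were called, and 35.7% of such tests were called over all genes. Without the 9 libraries with male or other-line RNA, 29 were called.

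Fad2 was called in all 10 pairs of lines. Mated means ran from 1027 ± 159 CPM in Zimbabwe (n = 15) through 768 ± 147 in Tasmania (n = 15), 642 ± 101 in Ithaca (n = 14) and 543 ± 72.5 in Netherlands (n = 15) to 409 ± 65.3 CPM in Beijing females (SD, n = 15). The ends of this order, Zimbabwe and Beijing, differed by a log2 change of 1.33 ± 0.10 (2.52-fold), and every mated Zimbabwe library lay above every mated Beijing library, whose highest had 561 CPM. Of all genes tested, 1.83% lay higher in every mated Zimbabwe than in every mated Beijing library. Zimbabwe and Tasmania, the nearest line, differed by 0.42 ± 0.09 (edgeR's quasi-likelihood test, adjusted p = 2.25e-04). The middle of the order is less firm. Without the 9 libraries, the calls between Netherlands and Ithaca (log2 change -0.27, adjusted p = 0.0642) and between Tasmania and Ithaca (0.19, adjusted p = 0.192) were lost. With all libraries these changes were -0.23 (adjusted p = 0.0497) and 0.26 (adjusted p = 0.0277). The first was also lost without replicate number 2 (-0.23, adjusted p = 0.112) or 3 (-0.07, adjusted p = 0.79), and the other without number 1 (0.14, adjusted p = 0.466) or 2 (0.28, adjusted p = 0.0524).

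For Cyp4g1 the order was another. Mated means were 5776 ± 955 CPM in Zimbabwe, 5925 ± 1409 in Tasmania, 5231 ± 790 in Ithaca, 4329 ± 878 in Netherlands and 3269 ± 467 CPM in Beijing females. Zimbabwe was not called different from Tasmania (log2 change -0.02 ± 0.10, interval of 2 SE from -0.22 to 0.18) or from Ithaca (0.13 ± 0.10, interval from -0.08 to 0.33). It was called above Netherlands (0.42 ± 0.10) and Beijing (0.82 ± 0.10). Of the 10 pairs, 7 were called, and 6 without the 9 libraries, where Netherlands against Ithaca was lost (-0.23, adjusted p = 0.167, beside -0.29, adjusted p = 0.0197, with all). That call was also lost without replicate number 2 (-0.22, adjusted p = 0.119) or 3 (-0.17, adjusted p = 0.415), and Zimbabwe over Netherlands was lost without number 3 (0.36, adjusted p = 0.0599).

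desat1 ran the other way for Beijing, the line lowest in Fad2 and Cyp4g1. Mated means were 1744 ± 191 CPM in Zimbabwe, 2076 ± 350 in Beijing, 1916 ± 233 in Tasmania, 1461 ± 100 in Ithaca and 1438 ± 161 CPM in Netherlands females. By edgeR's quasi-likelihood test, 7 pairs were called. Not called were Beijing and Tasmania (adjusted p = 0.221), Tasmania and Zimbabwe (0.169), and Ithaca and Netherlands (0.825). Zimbabwe lay below Beijing by a log2 change of -0.25 ± 0.07 (edgeR's quasi-likelihood test, adjusted p = 0.00388), a call lost without replicate number 1 (-0.21, adjusted p = 0.087) or 3 (-0.18, adjusted p = 0.106). Zimbabwe over Netherlands, at 0.28 ± 0.07, was lost without replicate number 3 (0.16, adjusted p = 0.199).

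The elongase genes and desat2 separated fewer lines. eloF was called in 1 of 10 pairs, Tasmania over Beijing (log2 change 0.32 ± 0.11, means 114 ± 26.9 and 91.4 ± 19.0 CPM), and that call was lost without replicate number 1 (0.17, adjusted p = 0.513). bond was lowest in Beijing females, at 42.9 ± 5.05 CPM. It was called higher than there in Zimbabwe (59.7 ± 16.9 CPM), Ithaca (57.7 ± 11.9 CPM) and Tasmania females (54.0 ± 12.6 CPM). These log2 changes over Beijing were 0.48, 0.42 and 0.33. All 3 calls were lost without replicate number 1, at 0.26, 0.33 and 0.34 (adjusted p = 0.251, 0.158 and 0.126), and that of Tasmania also without number 2 (0.31, adjusted p = 0.126). desat2 was highest in Zimbabwe (0.771 ± 0.328 CPM) and Beijing females (0.733 ± 0.284 CPM), whose difference was not called (log2 change 0.06 ± 0.26). Both stood above Ithaca (0.392 ± 0.156 CPM) and Tasmania females (0.354 ± 0.158 CPM). The calls of Zimbabwe over Ithaca (0.96) and of Ithaca against Beijing (-0.90) were lost without replicate number 3, at log2 changes of 0.90 and -0.81 (adjusted p = 0.0558 and 0.074).

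Because Fad2 was higher in Zimbabwe females while desat1 and eloF were not called, the counts of these genes were set against each other within each library, which removes library size. These ratios were chosen after Fad2 was seen to be higher, and are descriptions with no test of their own. In mated females, Fad2 to desat1 averaged 0.594 (0.472 to 0.759) in Zimbabwe and 0.354 (0.110 to 0.541) in the other lines. In 8 of 15 Zimbabwe libraries the ratio was above all 59 others. The exons of Fad2 (1312 bases) are shorter than those of desat1 (2488 bases), and the ratio does not remove effects of length. The slope of log2 CPM on log2 gene length was 0.839 to 1.06 in these 8 libraries. In the other mated Zimbabwe libraries it was 0.978 to 1.15, and in mated libraries of the other lines 0.512 to 1.21. The part of gene length in the ratios was not tested. It was lowest in Beijing females (mean 0.202, at most 0.295).

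The ratio of Fad2 to eloF averaged 10.46 (8.61 to 13.1) in mated Zimbabwe females and 5.74 (3.16 to 8.90) in the other lines, with 13 of 15 Zimbabwe libraries above all 59 others. Fad2 to Cyp4g1 averaged 0.179 in Zimbabwe and 0.128 in the other lines, and 4 of 15 Zimbabwe libraries were above all others. In virgins, Fad2 to desat1 was 0.446 to 0.598 in the 3 Zimbabwe libraries and 0.161 to 0.415 in the 12 others. Fad2 to eloF was 8.78 to 9.95 in Zimbabwe virgins, against 3.94 to 7.37. Fad2 to Cyp4g1 was 0.192 to 0.201 in Zimbabwe virgins, against 0.121 to 0.181. The groups did not overlap in these 3 ratios. Of the ratios of Fad2 to each of 10196 tested genes with counts in every virgin library, 4.31% lay higher in all 3 Zimbabwe virgins than in all 12 others. The matching share was not computed for mated females, so the counts of mated libraries above all others have no such background.

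**Figure D3:**
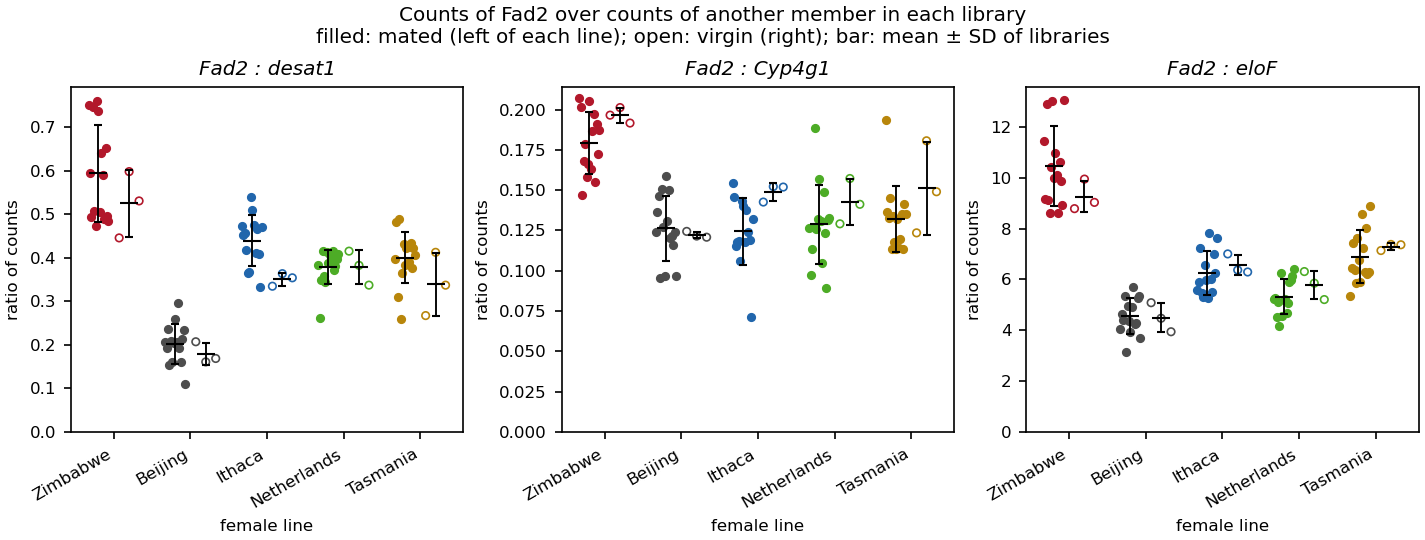
Ratio of Fad2 counts to those of desat1, Cyp4g1 and eloF in each library (linear axes from 0), by female line, with mated females as filled points left of virgins as open points and bars for the mean ± SD. The 3 virgin Zimbabwe libraries lie above all 12 virgin libraries of the other lines in each panel.

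Markers of the tissues in a whole female were measured beside these genes. The summed level of 7 genes expressed in oenocytes, other than the 6, was 1466 to 1949 CPM in mated Zimbabwe females and 1018 to 2370 CPM in the other lines, and 1278 to 1826 CPM in Zimbabwe virgins, against 1179 to 1903 CPM. Of these 7 genes, 5 were called between Zimbabwe and other mated females, 4 as higher (CG1444, CG18609, v(2)k05816 and svp) and 1 as lower (Hnf4), where 33.2% of all genes were called, 16.9% as higher and 16.3% as lower. The fat body sum was 17894 to 48609 CPM in mated Zimbabwe females, against 18212 to 57760 CPM. Of the 8 fat body genes tested, 2 were called higher (CG9747, at a log2 change of 0.79, and the yolk gene Yp3, at 0.55) and the yolk gene Yp1 lower (-0.80). Of 9 female germline genes 3 were called, a share like that over all genes: 2 were higher (vas, 0.18, and bcd, 0.22) and 1 was lower (aub, -0.20), calls lost without replicate number 1 or 2 for vas, 3 for bcd and 1 for aub (adjusted p at most 0.212). Of the marker lists, eggshell genes had the most calls: 12 of 13 were called higher in mated Zimbabwe females (among them Cp7Fb, Vm26Aa and Vm32E), with a median log2 change of 1.07, and their sum was 6216 to 40502 CPM, against 2467 to 34640 CPM. Without replicate number 1, Vm26Aa and Vm32E were not called (adjusted p = 0.115 and 0.0766). In virgins edgeR called 0 of the 13 eggshell genes, with 0 at an unadjusted p under 0.05 and 0 by DESeq2, and their sum was 6751 to 10455 CPM in Zimbabwe and 3892 to 38802 CPM in the other lines. Of 19 testis and sperm and 11 seminal fluid genes, edgeR called 0 in either state. In mated females 3 and 2 of them had an unadjusted p under 0.05 and DESeq2 called 1 and 2, and in virgins all of these counts were 0. The part of egg production and tissue makeup in the differences of the 6 genes was not tested.

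Few differences with mating passed the test. The mean change over the 5 female lines called 1 of 6 genes, desat1, which was lower in mated females (log2 change -0.18 ± 0.06, edgeR's quasi-likelihood test, adjusted p = 0.0349). Of all genes, 5.63% were called in this comparison, 4.16% as higher and 1.47% as lower. The call was lost without the 6 libraries with male RNA (-0.18, adjusted p = 0.0508), without the 9 libraries with male or other-line RNA (-0.17 ± 0.06, adjusted p = 0.0918), without replicate number 1, 2 or 3 of every group (-0.12, -0.22 and -0.20, adjusted p = 0.467, 0.0892 and 0.105) and without 8 of the 15 virgin libraries one at a time: Beijing 1 and 3, Ithaca 2, Netherlands 1, Tasmania 1 and 3, and Zimbabwe 2 and 3. In these 8 fits the log2 change was -0.18 to -0.12 (adjusted p from 0.0536 to 0.18), and it was nearest to 0 without Netherlands 1.

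Within single lines, desat1 showed its largest differences in Ithaca and Tasmania. Mated Ithaca females ranged from 1336 to 1644 CPM (median 1440), against 1893, 2064 and 1831 CPM in Ithaca virgins. Mated Tasmania females ranged from 1645 to 2337 CPM (median 1808), against 2501, 2338 and 2566 CPM in Tasmania virgins. In neither line did mated and virgin libraries overlap, though in Tasmania the highest mated and lowest virgin library were almost equal. Of all genes tested, 0.697% lay lower in every mated than in every virgin Ithaca library, and 0.506% did so in Tasmania. By edgeR's test, 0.246% of comparisons of mated with virgin females within a line were called over all genes. The log2 changes were -0.40 ± 0.12 in Ithaca (adjusted p = 0.193) and -0.37 ± 0.12 in Tasmania (adjusted p = 0.162), beside 0.05 ± 0.13 in Zimbabwe, -0.13 ± 0.12 in Beijing and -0.06 ± 0.12 in Netherlands females. Without the 9 libraries, which include Tasmania virgin replicate 3, they were -0.38 ± 0.14 and -0.34 ± 0.15. When Ithaca females were fitted alone, desat1 passed the threshold (adjusted p = 0.0494).

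Sums of tissue marker genes were also compared between mated and virgin females of Ithaca and Tasmania. The summed level of 13 eggshell genes averaged 13835 ± 6843 CPM in mated Ithaca females (7945 to 34640, n = 14), against 31357 ± 6814 CPM in Ithaca virgins (25431 to 38802, n = 3). The fat body sum averaged 37540 ± 7290 CPM in mated Ithaca females (29307 to 57760), against 46140 ± 5872 CPM in Ithaca virgins (40881 to 52476). Yolk genes make up much of this sum. Over all mated libraries Yp1 averaged 10166 CPM and Yp3 9783 CPM, beside a mean sum of 30953 CPM. The sum of the oenocyte genes was 1639 to 2216 CPM in mated Ithaca females, against 1709 to 1845 CPM in the virgins. In Tasmania the eggshell sum was 2651 to 20702 CPM in mated females, against 6958 to 17133 CPM in virgins, and the fat body sum was 18212 to 46892 CPM, against 23592 to 25153 CPM. Between mated and virgin Ithaca females edgeR called 0 of 13 eggshell, 0 of 8 fat body and 0 of 7 oenocyte genes, with 6, 3 and 1 at an unadjusted p under 0.05, and in Tasmania it called 0 of each, with 1, 2 and 0. DESeq2 called 0 in both lines. The median log2 change of the eggshell genes was -1.27 in Ithaca and -0.56 in Tasmania, beside 0.05 and -0.01 over all genes. The part of these tissues in the values of desat1 was not tested.

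Over the 6 genes and 5 lines, edgeR's quasi-likelihood test called 0 of 30 changes with mating. At an unadjusted p under 0.05 it gave 2 of 30, desat1 in Ithaca and in Tasmania, and DESeq2 called 0. A test of whether the change differed between lines called 0 of 6 genes (0.0664% of all genes). It gave 0 of 6 at an unadjusted p under 0.05, and DESeq2 called 0. For desat1, the change in Zimbabwe females exceeded the mean change of the other lines by 0.29 ± 0.14 on the log2 scale (unadjusted p = 0.0449 in edgeR's model of all genes, adjusted p = 1.00).

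The other 5 genes were not called: their mean log2 changes with mating were -0.02 ± 0.07 for Fad2, 0.01 ± 0.17 for desat2, 0.02 ± 0.09 for eloF, 0.13 ± 0.09 for bond and 0.13 ± 0.08 for Cyp4g1. Fad2 had an interval of 2 SE from -0.17 to 0.12, and desat2 a wide one from -0.33 to 0.34. In Zimbabwe females, Cyp4g1 had a log2 change of 0.34 ± 0.18 and bond one of 0.41 ± 0.22, and neither was called (adjusted p = 0.917 and 0.923). Netherlands virgin replicate 1 stood apart from the other Netherlands virgins in several of these genes: Fad2 had 860 CPM there, against 438 and 433 CPM, and desat1 had 2071 CPM, against 1146 and 1286 CPM. Without it Cyp4g1 was called in the mean over lines (adjusted p = 0.0408).

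**Figure D4:**
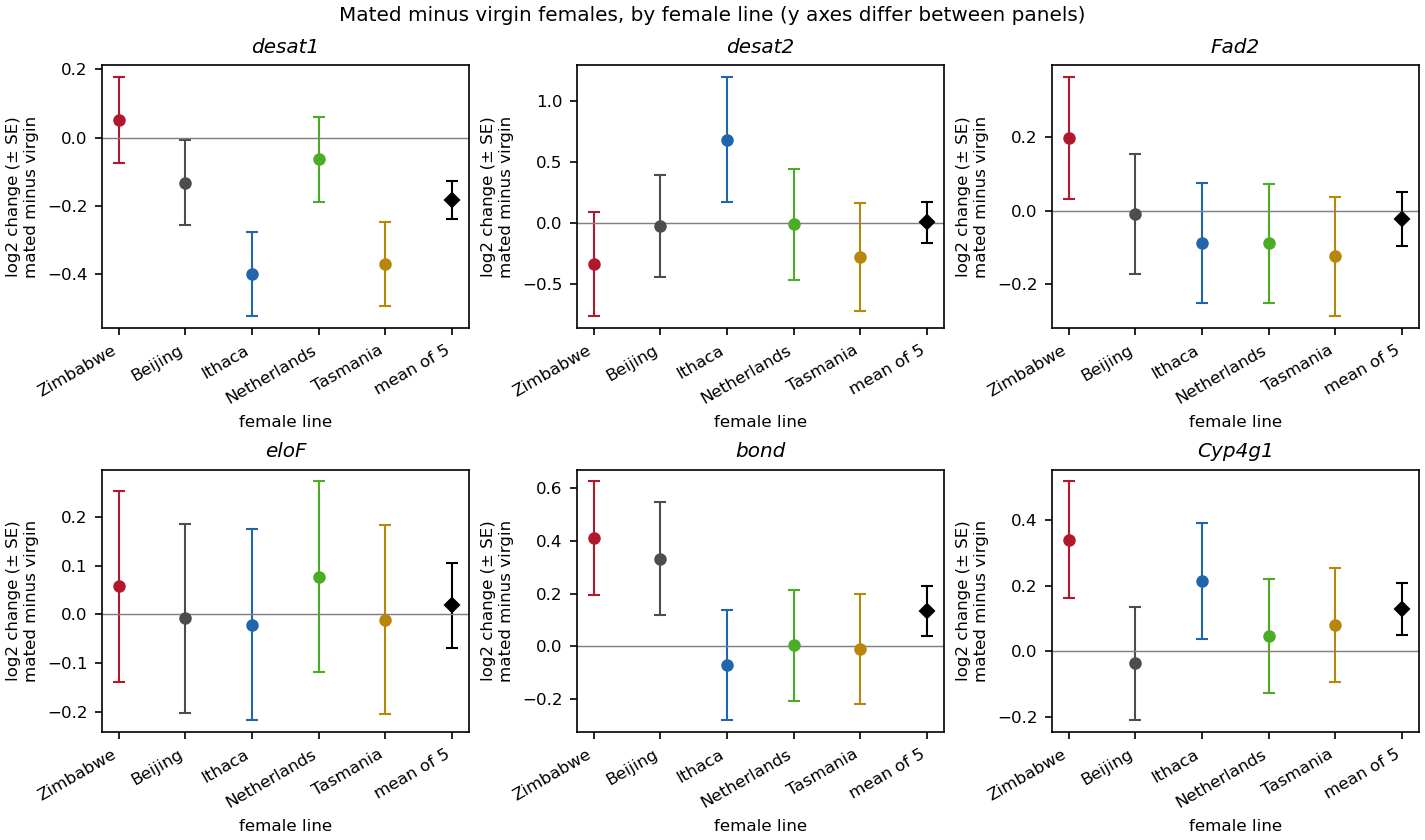
Log2 change of mated minus virgin females from edgeR for each gene, by female line and for the mean of the 5 lines (black diamond), with SE as bars; y axes differ between panels. The clearest departures from 0 are those of desat1 in Ithaca (-0.40) and Tasmania (-0.37), and the SE of desat2 is wide in every line.

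The crosses also ask whether the line of the male mattered for the female's transcripts. No male line effect on the 6 genes passed the test. Averaged over female lines, edgeR's quasi-likelihood test called 0 of 6 genes, and 0.0083% of all genes. At an unadjusted p under 0.05 it gave 1 of 6, Fad2, and DESeq2 called 0. Within single female lines 0 of 30 tests were called (3.9% of tests over all genes), 1 had an unadjusted p under 0.05 (Cyp4g1 in Tasmania females, unadjusted p = 0.0203 in edgeR's model), and DESeq2 called 0. That share over all genes moved with the libraries that stood apart: without the 9 libraries, 23 genes were called in Ithaca females in place of 962, and 7 in Netherlands females in place of 1355. The test of female line by male line called 0 of 6 genes, 0 at an unadjusted p under 0.05, and DESeq2 called 0, where 3.53% of all genes were called with all libraries.

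eloF had its lowest mean after mating with Zimbabwe males. Over all female lines it averaged 89.5 ± 15.8 CPM with Zimbabwe males (n = 14), 105 ± 22.9 with Beijing, 98.7 ± 21.3 with Ithaca, 114 ± 21.8 with Netherlands and 105 ± 20.9 CPM with Tasmania males (SD, n = 15 each). The cross with Zimbabwe males had the lowest mean in 4 of 5 female lines, all but Tasmania, and in 3 of 5 without the 9 libraries. There Ithaca x Ithaca was lower in Ithaca females, with a mean of 99.8 CPM. Ithaca x Zimbabwe was then replicate 3 alone, at 102 CPM, a library that itself stood at 23.4% of the Netherlands level. Without them the mean with Zimbabwe males was 92.1 ± 15.5 CPM (n = 12), and means with the other male lines were 98.1 to 111 CPM. The ranges overlapped widely, at 57.1 to 113 CPM with Zimbabwe males and 68.8 to 148 CPM with the others. The log2 change of -0.24 ± 0.09 was not called (unadjusted p = 0.0135, adjusted p = 0.561 in edgeR's quasi-likelihood test). Without the 9 libraries it was -0.19 ± 0.11 (adjusted p = 1.00).

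Comparing Zimbabwe males with all others, 0 of the 6 genes were called by edgeR, where 0.0166% of all genes were called. At an unadjusted p under 0.05 there was 1 of 6, eloF, and DESeq2 called 0. Among Zimbabwe females alone the same comparison called 0 of 6 genes (0.0% of all genes), with 0 at an unadjusted p under 0.05 and 0 by DESeq2. In the other females it called 0 of 6 (0.0166%), with 1 at an unadjusted p under 0.05, eloF, and 0 by DESeq2. For eloF the unadjusted p in edgeR's model without the 9 libraries was 0.0937 over all females and 0.18 in the females other than Zimbabwe.

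Among Zimbabwe females the same-line cross had the lowest mean for each of the 6 genes. For Fad2, Zimbabwe x Zimbabwe had 1035, 883 and 746 CPM (mean 888 ± 144), against means of 1013 to 1155 CPM in the other 4 Zimbabwe crosses. The log2 change of Fad2 was -0.26 ± 0.17 and was not called (edgeR's quasi-likelihood test, adjusted p = 0.928). Changes of the other genes were -0.11 (desat1), -0.83 (desat2), -0.25 (eloF), -0.32 (bond) and -0.31 (Cyp4g1), and none was called. The same-line cross had no fixed place in the other lines. It had the lowest Fad2 mean in Ithaca females (542 ± 23.8 CPM), and the highest in Tasmania (897 ± 58.1 CPM) and Netherlands females (584 ± 74.5 CPM). In Tasmania females it was also highest for desat1, eloF, bond and Cyp4g1, but not for desat2. In Ithaca females it was also lowest for desat1, desat2 and Cyp4g1, but not for eloF or bond. Over female lines, Fad2 was lowest with Ithaca males in 4 of 5 and highest with Netherlands males in 4 of 5, with means of 622 ± 251 and 754 ± 260 CPM (SD, n = 15 each). Without the 9 libraries each of these counts was 3 of 5, with means of 637 ± 268 and 770 ± 275 CPM (n = 13 each). In Ithaca females the highest was then Ithaca x Zimbabwe, at 774 CPM in its 1 library, replicate 3. The test over male lines gave an unadjusted p of 0.0267 and an adjusted p of 0.389 in edgeR's model, and 0.156 and 0.86 without the 9 libraries. Same-line against different-line males called 0 of 6 genes (0.0% of all genes), with 0 at an unadjusted p under 0.05 and 0 by DESeq2. The nearest was desat2 (log2 change -0.43 ± 0.22, unadjusted p = 0.0504 in edgeR's model).

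**Figure D5:**
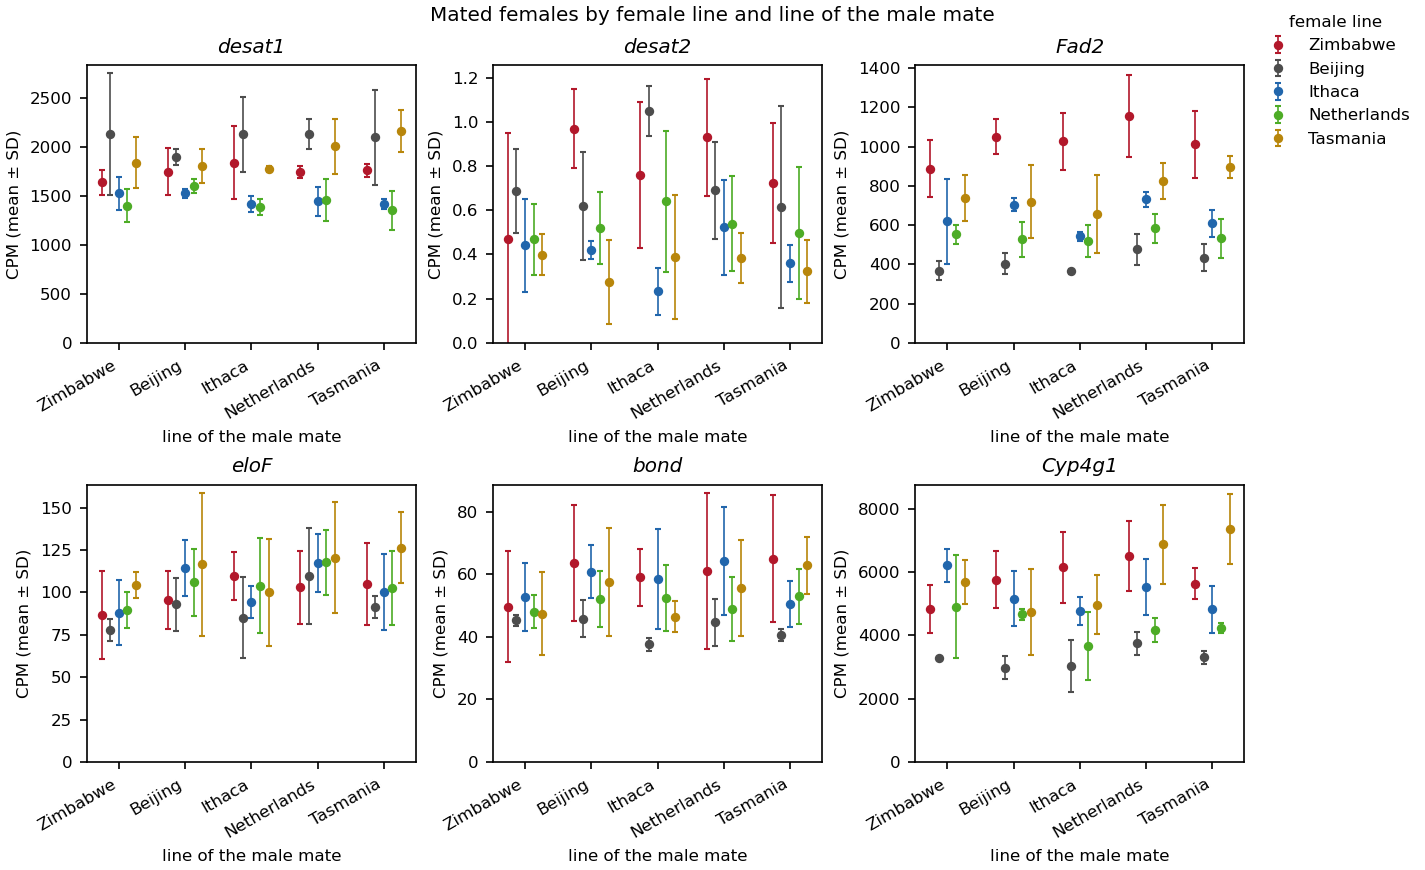
Mean level of each gene in mated females (CPM, linear axis from 0) by the line of the male mate, with 1 colour per female line and bars for the SD over libraries (n = 3, or 2 for Ithaca x Zimbabwe). Cross means of Fad2 are lowest in Beijing females (364 to 476 CPM) and overlap between neighbouring lines among the others, those of Cyp4g1 overlap widely between Zimbabwe (4843 to 6499 CPM), Tasmania (4741 to 7354 CPM) and Ithaca females (4763 to 6214 CPM), and eloF is lowest with Zimbabwe males in 4 of 5 female lines, or 3 of 5 without the 9 libraries.

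Other genes of the pathway were counted in lists picked by function. Between mated Zimbabwe and other females, all 5 other desaturase genes tested were called, 3 as higher and 2 as lower, with a median log2 change of 0.34. Of 16 other elongase genes, 8 were higher and 2 lower (median 0.22). Of 13 fatty acyl-CoA reductase genes, 3 were higher and 4 lower (median -0.09). Among 12 genes of fatty acid synthesis and the elongation cycle, 4 were higher and 1 lower (median 0.07). These counts stand beside 33.2% of all genes called and a median of -0.03, and the lists overlap in part with the tissue markers above. In virgins, where 6.45% of all genes were called, edgeR called 0 of 5 desaturase and 0 of 16 elongase genes, with 1 and 4 at an unadjusted p under 0.05 and 0 by DESeq2. There 1 reductase gene was lower (CG13091) and, in the synthesis list, 1 gene was higher (CG1444) and 1 lower (CG4500).

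The most clearly called desaturase genes were CG9747, which is also in the fat body list (log2 change 0.79 ± 0.12, means 74.6 ± 26.5 CPM in Zimbabwe and 45.1 ± 19.8 CPM in other mated females), CG9743 (-0.58 ± 0.09) and ifc, the dihydroceramide desaturase gene (-0.25 ± 0.04). Among the elongase genes they were CG9458, CG18609 and CG2781, at 0.76 ± 0.08, 0.73 ± 0.10 and 0.36 ± 0.06. CG9458 averaged 57.3 ± 7.52 CPM in mated Zimbabwe and 34.2 ± 8.40 CPM in other mated females, with ranges of 40.7 to 72.4 and 20.7 to 51.5 CPM. CG1444, the ketoacyl-CoA reductase of the elongation cycle (spidey), was higher by 0.45 ± 0.05, with 319 ± 39.7 and 235 ± 32.3 CPM. It was also called in virgins (0.33 ± 0.10, adjusted p = 0.0425 in edgeR's quasi-likelihood test). The NADPH-producing malic enzyme gene Men was higher by 0.54 ± 0.07, and v(2)k05816, a fatty acid synthase gene expressed in oenocytes, by 0.46 ± 0.12, a call lost without replicate number 3 (adjusted p = 0.063).

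Among the reductase genes, which encode or are predicted to encode enzymes that make fatty alcohols and aldehydes, CG13091 differed most. Its log2 change was -5.19 ± 0.29 in mated (adjusted p = 6.54e-24) and -4.97 ± 0.63 in virgin females (adjusted p = 1.10e-08, edgeR's quasi-likelihood test). It was not a trait of Zimbabwe alone. Mated means were 0.798 ± 0.388 CPM in Zimbabwe and 2.88 ± 1.49 CPM in Ithaca females, beside 58.2 ± 25.9 in Beijing, 51.0 ± 27.2 in Netherlands and 104 ± 32.7 CPM in Tasmania females. CG1443 (waterproof) was higher in mated Zimbabwe females by 0.36 ± 0.05 and CG17560 was lower (-0.57 ± 0.10). CG4500, a predicted long-chain acyl-CoA synthetase gene, had 0 to 6 counts per library in mated Zimbabwe females and 1 to 68 in the others (adjusted p = 2.93e-08).

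Another P450 gene, Cyp4g15, was called higher in mated Zimbabwe females (log2 change 0.25 ± 0.05), and Cpr, the NADPH P450 reductase gene, was not called. Of 8 regulators, svp was higher (0.24 ± 0.07) and Hnf4, which is required in oenocytes for hydrocarbon synthesis, was lower (-0.20 ± 0.07). The call of svp was lost without replicate number 3 (adjusted p = 0.144), and that of Hnf4 without number 1 or 3 (adjusted p at most 0.171).

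With mating, 5.63% of all genes were called in the mean over lines, 4.16% as higher and 1.47% as lower. There edgeR called 0 of 5 other desaturase genes, with 1 at an unadjusted p under 0.05 and 0 by DESeq2. Of 16 elongase genes, Baldspot, which lengthens common fatty acids, was higher in mated females (log2 change 0.24 ± 0.04, means 219 ± 21.7 CPM mated and 186 ± 17.9 CPM virgin), and so was Elo68alpha (1.19 ± 0.23). Elo68alpha was at most 4.77 CPM in mated Zimbabwe females, but reached 13.1 CPM in Ithaca and 22.8 CPM in Netherlands females, in the 2 libraries with most testis RNA. Without the 9 libraries its change was 1.04 ± 0.20 (adjusted p = 3.12e-04). Of 13 reductase genes 4 were higher, among them CG1441 (0.46 ± 0.07), CG1443 (0.30 ± 0.06) and CG12268 (0.36 ± 0.10). CG1443 was lost without replicate number 1 or 2 (adjusted p at most 0.116), and CG12268 was lost without the 9 libraries (adjusted p = 0.0662) and without replicate number 1, 2 or 3, Netherlands virgin 2, Tasmania virgin 2 or Zimbabwe virgin 1 (adjusted p at most 0.137). Of 12 synthesis genes CG4500 was lower (-0.99 ± 0.26), a call lost without replicate number 2 or 3 (adjusted p at most 0.274). Of 8 regulators dsx, the sex-determination gene known to act on Fad2, was higher (0.35 ± 0.07), a call lost without replicate number 3 (adjusted p = 0.067). The fat body gene to was also higher (0.49 ± 0.13), a call lost without number 1 or 2 (adjusted p at most 0.199). Between male lines edgeR and DESeq2 called 0 genes of the desaturase, elongase, reductase and synthesis lists, with 1, 3, 5 and 3 at an unadjusted p under 0.05.

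Genes whose levels followed those of the 6 were ranked by Pearson correlation of log2 CPM over the 89 libraries, among 9154 genes. The libraries share lines and crosses, so these values are descriptions. The closest to Fad2 were CG1444 (r = 0.90), CG9458 (0.86) and CG18609 (0.85), and the closest to Cyp4g1 was Fad2 (0.81). bond was closest to wbl (0.85) and CG5326, a predicted elongase gene (0.74). For eloF the nearest was CG7079 (0.75), for desat1 CG31751 (0.77), and for desat2, with few counts, CG3706 (0.59). Fad2 and desat1 had r = 0.05.

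After subtraction of the mean of each cross or virgin group, which leaves the spread between replicate libraries, the elongase gene CG16904 was closest to both Fad2 (r = 0.82) and eloF (0.87), bond was closest to CG5326 (0.86), and Cyp4g1 to CG2765 (0.73). Fad2 and eloF then had r = 0.76, against 0.50 before, and Fad2 and desat1 had 0.42. desat2 had no r above 0.29 with the other 5 genes in size.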

How the data were processed

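Whole-female RNA was sequenced with a kit that does not mark strand (single-end reads of 100 bases, per the labels' protocols). The deposited table holds whole-number read counts for each gene, made by the authors with HTSeq after Trimmomatic and TopHat2 on build dm3, with FastQC as a check, per the submitters' processing notes. Their versions, the strand setting and the handling of reads shared by related genes are not given in the sources used here.

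Of 14522 rows, 8 whose symbol is a number were left out (0.122% of counts). Of the 14514 others, 98.7% were matched to the reference annotation (BDGP6) for names and exon lengths. No column was left unmapped. Total counts had a median of 14081355 per library, and TMM factors ran from 0.74 to 1.1. Counts were fitted with edgeR 4.0.16 (R 4.3.3): 30 group means, TMM scaling, filterByExpr, which kept 12045 genes, and the robust quasi-likelihood F-test, with p-values adjusted by Benjamini-Hochberg over all genes and calls at 0.05. Each comparison was a contrast of group means that weighted crosses equally. DESeq2 1.42.0 was an alternative, as were its size factors in edgeR, no filter on low counts, a gene length slope as covariate, a replicate block, fits of mated, virgin or single-line libraries alone, leaving out each replicate number or virgin library, and leaving out libraries with male RNA. Leaving out libraries with male or other-line RNA was chosen after seeing the data. The main test was also run on simulated counts, drawn independently for each library from 1 mean per gene. For Zimbabwe against other mated females it called 69.4% of genes changed by a log2 of 0.5 and 86.5% of those changed by 1. Of 11675 genes in that fit, 12 unchanged genes were called. These counts hold no correlation of same-numbered libraries and no male or other-line RNA, so they cannot check the test for such effects. Testis or other-line RNA was measured from genes at or near 0 elsewhere: testis sums above 10 CPM, or at least 3 genes under 1% in the own line and at least 10 CPM in the other. CPM used TMM library sizes, and log2 CPM for correlations a prior count of 2, among genes with an average log2 CPM of at least 1. Replicates were separate bottles whose matings were set up together. The smallest chi-square per degree of freedom between replicates was 12.7, so none was a repeat of another.

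The 6 genes and all lists were chosen with earlier results of these data known. Named genes were the 6, and in each list up to 3 called genes with the smallest adjusted p per comparison. Genes most like a member were the 3 with the highest Pearson correlation. Single genes outside this rule, such as those in the lists of calls by tissue, were named after their values were seen.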

Additional observations from a re-analysis of the deposited data

How the results depend on the processing

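Of the counts of the 6 genes called, those between Zimbabwe and other mated females (3), between the 5 female lines in mated females (5) and between pairs of lines (32 of 60) stayed within 1.5 times under every alternative. Leaving out 1 replicate number gave 2 to 3, 4 to 6 and 26 to 28. The count for Zimbabwe virgins (1) fell to 0 in virgin libraries alone and was 0 to 1 with 1 replicate left out. The count for female lines in virgins (2) was 0 to 3 with 1 replicate left out. The count for mated against virgin females over lines (1) was 0 without libraries with male RNA, 0 without those with male or other-line RNA, and 0 to 1 with 1 replicate left out. The count for mated against virgin Ithaca females (0) was 1 in Ithaca females alone. No result changed sign while called. The causes were not tested.

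Nothing in the labels says that a replicate number marks a shared batch, so the main fit did not pair libraries by number. Deviations of same-numbered libraries had a median correlation of 0.157 (58.1% over 0.1, lowest -0.713), against -0.0804 for different numbers. Deviations from a group mean cancel within the group, so the value for different numbers is largely fixed by that for same numbers. In all 5 crosses of Zimbabwe females replicate 1 lay above replicate 3 for Fad2, eloF, bond and the ratio of Fad2 to desat1. The same order held in all 5 crosses for bond in Ithaca and Netherlands, eloF in Tasmania and Cyp4g1 in Netherlands females. It held in 0 of 5 for eloF in Beijing, desat1 in Ithaca and desat2 in Tasmania females. Over the 5 crosses of Zimbabwe females, the eggshell sum was 20429 to 40502 CPM in replicate 1 and 6216 to 15211 CPM in replicate 3. The gene length slope was 0.839 to 1.06 in replicate 1 and 1.09 to 1.15 in replicate 3. The part of either in the order of these replicates was not tested. Whether same-numbered libraries of a line are independent was not tested. With the replicate block the counts were 3 for Zimbabwe mated and 1 for Zimbabwe virgin females, 5 and 2 for female lines in mated and virgin females, 32 for pairs and 1 for mating over lines, as without it.

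Over all genes, the counts called for male line within Netherlands (1355) and Ithaca females (962) and for female line by male line (425) reached as low as 0, 2 and 1, and were 7, 23 and 17 without the 9 libraries. For Zimbabwe virgins (777) the range over alternatives was 393 to 1257, for mated against virgin females over lines (678) 241 to 1234, for female lines in virgins (3308) 1632 to 4869, and for mated against virgin Tasmania females (99) 2 to 272. Those for Zimbabwe against other mated females (3994) and female lines in mated females (8442) stayed within 1.5 times. At 1 to 26 counts per library, few counts stand behind the values of desat2.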
